A study of Mus musculus with 2 samples.

Results

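Levels of 8 microRNA (miRNA) genes of epithelial cells were described in adrenal glands of mouse pups: Mir200b, Mir200a, Mir429, Mir200c and Mir141 of the miR-200 family, and Mir203, Mir205 and Mir31. They were chosen by name and are 8 of the 2202 miRNA genes counted, and each had a row in both count tables. The tissue came from male pups at 4 days of age of the strain B6CASTF1/J, the first-generation hybrid of C57BL/6J and CAST/EiJ, and no treatment or engineered allele was given in the labels. There was 1 group with 2 libraries of small RNA, biological replicates 1 and 2, from pups numbered 3 and 4 that shared 1 donor label. No second condition was sampled, so the results are the level of each gene and the difference between the libraries, always as replicate 1 over replicate 2. The assembly used, mm10, is that of C57BL/6J, and the part of CAST/EiJ alleles in any count was not tested.

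The miR-200 family is a guardian of epithelial identity. Its mature miRNAs repress the transcription factors Zeb1 and Zeb2, which switch off E-cadherin, and Zeb1 and Zeb2 in turn repress the miR-200 genes. The family is made from 2 clusters that each yield a shared primary transcript, and its members fall into 2 groups by their seed, the bases at positions 2 to 8 that pair with targets. miR-205 also represses Zeb1 and Zeb2 and is abundant in basal layers of stratified epithelia. miR-203 is known from skin, where it represses the stem cell factor p63 as cells leave the basal layer, and miR-31 is known from keratinocytes and hair follicles. The adrenal gland consists of a steroid-producing cortex, a medulla of chromaffin cells and a connective tissue capsule, and it lies beside the kidney, whose tubules express the miR-200 family.

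The mature arms best known to act in target repression are shown because the family is sorted by their seeds. The sequences are those of RefSeq on GRCm38.p6, all 8 genes were matched by symbol, and capitals mark the seed. The counts belong to a whole precursor, so the opposite arm is included in every value.
miR-200b-3p: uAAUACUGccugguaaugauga
miR-429-3p: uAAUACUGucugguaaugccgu
miR-200c-3p: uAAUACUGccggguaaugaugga
miR-200a-3p: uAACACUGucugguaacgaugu
miR-141-3p: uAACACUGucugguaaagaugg
miR-203-3p: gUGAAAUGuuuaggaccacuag
miR-205-5p: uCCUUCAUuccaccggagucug
miR-31-5p: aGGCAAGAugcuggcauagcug

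The seed AAUACUG was shared by miR-200b-3p, miR-429-3p and miR-200c-3p, and the seed AACACUG by miR-200a-3p and miR-141-3p. No other of the 1738 mature miRNAs in the RefSeq table carried either of them, and the seeds of miR-203-3p, miR-205-5p and miR-31-5p were each found in 1 mature miRNA. The seed groups of the family are set apart by the substitution U4C from miR-200b-3p to miR-200a-3p, with positions counted from 1 at the 5′ end. Within the first seed group, miR-200b-3p and miR-200c-3p differed at 2 of 22 compared positions (U11G and A22G), and miR-200b-3p and miR-429-3p at 4. Within the other, miR-200a-3p and miR-141-3p differed at 2 positions (C17A and U22G). Closely similar miRNAs can compete for the same reads, and a read with several possible loci was not counted. The longest run of bases that any of the 8 precursors shared with another counted precursor was 17, between Mir200a and Mir141. Mir200b and Mir200c shared 14.

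The 8 genes lie at 5 loci on mm10. Mir200b (ENSMUSG00000065549.3, chr4:156055681-156055750), Mir200a (ENSMUSG00000065400.1, chr4:156054896-156054985) and Mir429 (ENSMUSG00000065427.1, chr4:156053905-156053987) follow each other on the minus strand with 695 and 908 bases between them. All 3 lie in introns of Ttll10 transcripts and within the noncoding gene Gm13648, where Mir429 overlaps an exon and Mir200b and Mir200a lie in an intron. Mir200c (ENSMUSG00000065462.3, chr6:124718322-124718390) and Mir141 (ENSMUSG00000065474.1, chr6:124717914-124717985) are 336 bases apart on the minus strand, in an intron of the noncoding gene Gm15884. Mir141 also overlaps the exon of Gm29008, a locus still to be experimentally tested. Mir203 (ENSMUSG00000065574.1, chr12:112130880-112130955, plus strand) overlaps no other GENCODE M21 gene. Mir205 (ENSMUSG00000065533.1, chr1:193507463-193507530, minus strand) lies in an exon of the noncoding gene 4631405K08Rik, and Mir31 (ENSMUSG00000065408.1, chr4:88910557-88910662, minus strand) in an exon of the noncoding gene AL805899.1.

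Sense-strand miRNA counts totalled 3961630 in replicate 1 and 1686822 in replicate 2, so counting error was wider in replicate 2. Levels are counts scaled to a library total of 1000000 (CPM), and intervals in brackets are 95% exact intervals for counting error alone. The libraries differed in miRNAs of other tissues. Mir122, the miRNA of hepatocytes, had 1299 CPM in replicate 1, against 20602 CPM in replicate 2. The 3 erythroid miRNAs summed to 7248 CPM in replicate 1, against 595 CPM in replicate 2. Mir375, a miRNA of endocrine cells, had 31129 CPM in replicate 1 and 42377 CPM in replicate 2. No list of miRNAs of the adrenal cortex was examined.

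All 8 genes were counted in both libraries, and together they made up a small part of the miRNAs: 1426 CPM (1389 to 1464) in replicate 1 and 1691 CPM (1629 to 1754) in replicate 2, a mean of 1558 ± 187 CPM (SD, n = 2). The sum hid opposite differences. The 5 genes of the miR-200 family summed to 741 CPM (714 to 768) in replicate 1 and 279 CPM (254 to 305) in replicate 2, a ratio of 2.66 (2.41 to 2.94). Mir203, Mir205 and Mir31 together had 685 CPM (660 to 712) in replicate 1 and 1412 CPM (1356 to 1470) in replicate 2, a ratio of 0.485 (0.459 to 0.513). The family was thus 51.9% (50.6 to 53.2%) of the counts of the 8 genes in replicate 1 and 16.5% (15.1 to 17.9%) in replicate 2. Single genes weighed heavily in both sums. Mir31, with 108 and 755 CPM in replicates 1 and 2, made up most of the difference outside the family. Mir203 differed little (533 and 594 CPM). Within the family Mir200b differed most (272 and 32.0 CPM). In whole glands, fewer cells of a type and less RNA per cell cannot be told apart.

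By mean level Mir203 came first with 564 ± 42.9 CPM (SD, n = 2), followed by Mir31 with 431 ± 457 CPM, Mir429 with 208 ± 76.7 CPM, Mir200b with 152 ± 170 CPM and Mir200c with 112 ± 64.8 CPM. Mir205 with 53.8 ± 13.6 CPM, Mir200a with 23.9 ± 8.66 CPM and Mir141 with 14.2 ± 6.68 CPM were lowest. The ranges of the libraries overlapped between each neighbouring pair in this order except Mir200c with Mir205 and Mir205 with Mir200a. Among all 2202 genes ordered by mean level, Mir203 was at rank 119 and Mir141 at rank 302. The order differed between the libraries: Mir203 was the highest of the 8 in replicate 1, and Mir31 in replicate 2.

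**Figure D1:**
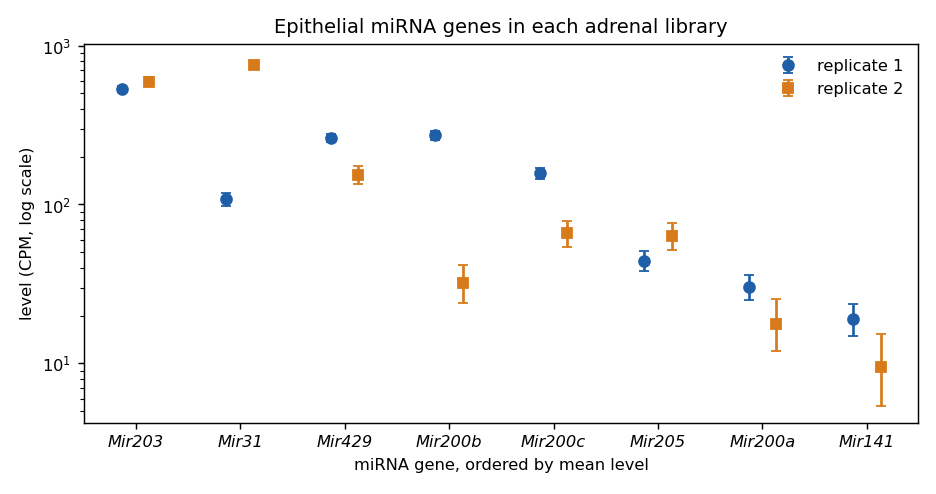
Level of each of the 8 epithelial miRNA genes in CPM (log axis), with replicate 1 as circles, replicate 2 as squares and 95% exact Poisson intervals as bars. Mir31 is far higher in replicate 2 and Mir200b far higher in replicate 1, while Mir203 has 533 CPM in replicate 1 and 594 CPM in replicate 2.

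The chromosome 4 cluster held most of the family, 76.2% (74.6 to 77.7%) of its counts in replicate 1 and 73.0% (68.7 to 76.9%) in replicate 2, and the chromosome 6 cluster the rest. The intervals overlapped, although the family total differed 2.66-fold. Grouped by the seed of the arms shown, the genes Mir200b, Mir429 and Mir200c made up 93.4% (92.4 to 94.3%) of family counts in replicate 1. In replicate 2 they made up 90.2% (87.2 to 92.7%). The counts include the opposite arms, whose seeds differ, so these are shares of genes and not of seeds. Mir200a and Mir141, the group with the other seed, were the lower members of both clusters in replicate 1. In replicate 2 they were again the lowest.

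Within the chromosome 4 cluster the members did not differ alike between the libraries. Mir200b had 272 CPM (256 to 289) in replicate 1 and 32.0 CPM (24.0 to 41.8) in replicate 2. Mir429 had 262 CPM (246 to 278) in replicate 1 and 154 CPM (135 to 173) in replicate 2, and Mir200a had 30.0 CPM (24.9 to 35.9) and 17.8 CPM (12.0 to 25.4) in the same libraries. Mir200b and Mir429 were thus at about the same level in replicate 1, where their ratio was 1.04 (0.953 to 1.13), whereas the ratio was 0.208 (0.153 to 0.280) in replicate 2. Mir200b also lay further above Mir200a in replicate 1, with a ratio of 9.06 (7.49 to 11.0), than in replicate 2, with 1.80 (1.13 to 2.91). The ratio of Mir429 to Mir200a was 8.72 (7.21 to 10.6) in replicate 1 and 8.63 (5.90 to 13.1) in replicate 2, and here the intervals overlapped, whereas they did not for either ratio with Mir200b. As a share of the cluster Mir200b was 48.2% (46.1 to 50.3%) in replicate 1 and 15.7% (12.1 to 20.0%) in replicate 2.

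No such shift was detectable in the chromosome 6 cluster at these counts. Mir200c had 158 CPM (145 to 170) in replicate 1 and 65.8 CPM (54.1 to 79.2) in replicate 2, and Mir141 had 18.9 CPM (14.9 to 23.7) in replicate 1 and 9.49 CPM (5.42 to 15.4) in replicate 2. The ratio of Mir200c to Mir141 was 8.32 (6.54 to 10.7) in replicate 1 and 6.94 (4.09 to 12.6) in replicate 2, and the intervals overlapped. Mir200b and Mir200c, whose mature arms are the most alike in the first seed group, changed places: the ratio of Mir200b to Mir200c was 1.73 (1.56 to 1.91) in replicate 1 and 0.486 (0.345 to 0.679) in replicate 2.

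**Figure D2:**
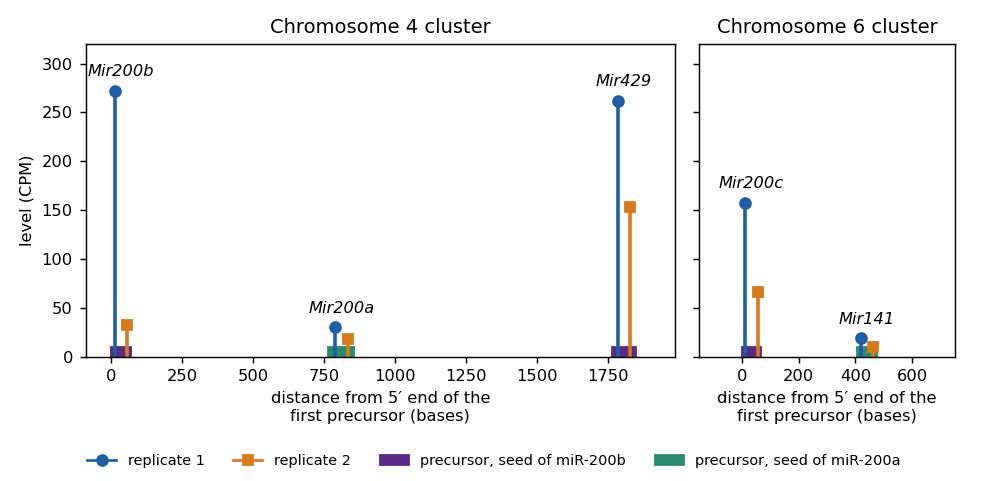
Level in CPM of each miR-200 gene at its distance, in bases, from the 5′ end of the first precursor of its cluster, with replicate 1 as circles, replicate 2 as squares and precursors drawn to scale as boxes coloured by seed group. Mir200b stands at the level of Mir429 in replicate 1 (272 and 262 CPM) but well below it in replicate 2 (32.0 and 154 CPM).

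The genes outside the family were all lower in replicate 1 on the CPM scale, but by unlike amounts. Mir203 had 533 CPM (511 to 557) in replicate 1 and 594 CPM (558 to 632) in replicate 2, a small difference. Mir205 had 44.2 CPM (37.9 to 51.2) in replicate 1 and 63.4 CPM (52.0 to 76.7) in replicate 2. Mir31 had 108 CPM (97.8 to 119) in replicate 1 and 755 CPM (714 to 797) in replicate 2. Mir31 was at rank 211 of the 2202 genes in replicate 1 and at rank 96 in replicate 2, while Mir203 was at ranks 117 and 113 in these libraries. The ratio of Mir203 to Mir31 was 4.95 (4.46 to 5.50) in replicate 1 and 0.787 (0.724 to 0.856) in replicate 2.

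Differences between the libraries were tested over the 404 genes that reached 10 counts in 1 library or both. The test was a two-sided exact binomial test of a gene's counts against the library totals, with Benjamini-Hochberg adjustment over all 404 genes. It covers counting error and compares these 2 libraries, with no replicate behind either side. A gene was called different at an adjusted p under 0.05 and a log2 ratio, on CPM + 0.5, beyond 1 in either direction. All 8 genes had an adjusted p under 0.05, as did 62.1% of all tested genes, so the adjusted p alone set few genes apart. By both criteria 3 of the 8 genes were called, or 37.5%, against 18.3% of all tested genes. Of these, 2 were higher in replicate 1, against 8.66% of all tested genes, and 1 was lower, against 9.65%.

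Mir200b was 8.50-fold higher (6.47 to 11.4) in replicate 1, with 1078 counts there and 54 in replicate 2, a log2 ratio of 3.07 (exact test, adjusted p = 4.94e-101). Mir200c was 2.39-fold higher (1.95 to 2.96) in replicate 1, with 624 and 111 counts, a log2 ratio of 1.25 (exact test, adjusted p = 5.65e-20). Mir31 was 7.00-fold lower (6.27 to 7.83) in replicate 1, with 427 and 1273 counts, a log2 ratio of -2.80 (exact test, adjusted p = 6.59e-319). By the size of the ratio Mir200b was at position 9, Mir31 at 13 and Mir200c at 65 of the 404 genes. The median size of the log2 ratio over all tested genes was 0.50, and the median log2 ratio was 0.05.

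The other 5 genes did not reach the size threshold. Mir141 had 75 counts in replicate 1 and 16 in replicate 2, a log2 ratio of 0.96 (exact test, adjusted p = 0.0191), just inside the threshold. Mir429 had 1038 and 259 counts, a log2 ratio of 0.77, and Mir200a had 119 and 30 counts, a log2 ratio of 0.74. All 5 genes of the family thus had a log2 ratio above 0, with a median of 0.96, beside 0.05 over all tested genes. They come from 2 clusters with shared primary transcripts, so they are not 5 separate observations. Mir203, with 2113 and 1002 counts, had a log2 ratio of -0.16, which was 0.23 when scaled to all reads of a library, and Mir205, with 175 and 107 counts, one of -0.52. With levels scaled to all reads of a library, unaligned ones included, in place of its miRNA counts, 6 of the 8 genes were called, against 20.3% of all tested genes. All 5 of the family were then higher in replicate 1, but the median log2 ratio of all tested genes was itself 0.41 on that scale. At a log2 ratio beyond 0.58 the same 6 genes were called, against 32.7% of all tested genes.

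**Figure D3:**
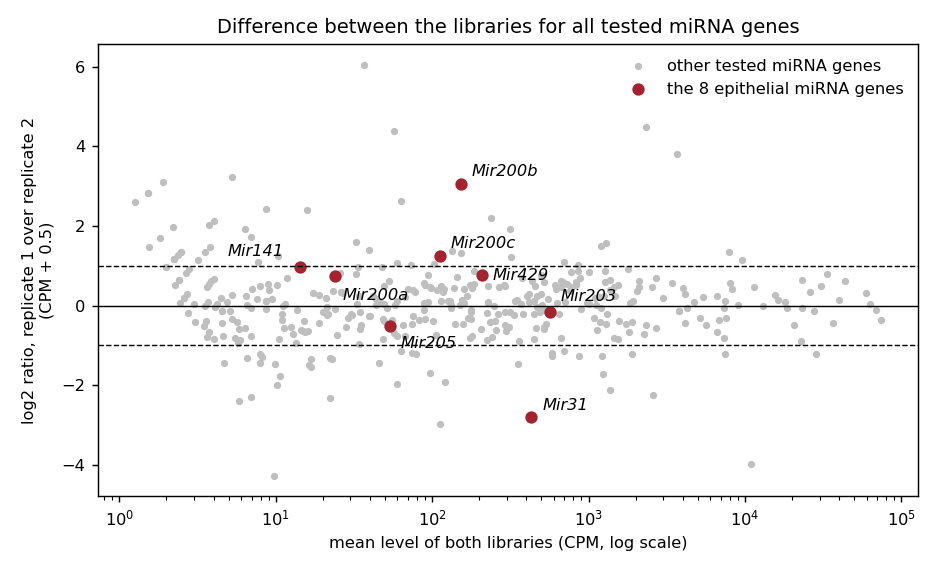
Log2 ratio of replicate 1 over replicate 2 (on CPM + 0.5) against the mean level in CPM (log axis) for all 404 tested miRNA genes, with the 8 epithelial genes in red and the thresholds of 1 and -1 dashed. Mir200b (3.07), Mir200c (1.25) and Mir31 (-2.80) lie outside the dashed lines.

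Other miRNAs of epithelia were compared as a list of 12 genes, of which 10 were tested, 1 was called higher and 1 lower in replicate 1, with a median log2 ratio of -0.24. Beside the 18.3% called over all tested genes, this count says nothing particular about the list. Mir182, which with Mir183 and Mir96 forms a cluster of sensory and neuroendocrine epithelia, had 447 CPM in replicate 1, against 191 CPM in replicate 2, and was called higher (log2 ratio 1.22). Its neighbour Mir183 had 151 CPM in replicate 1 and 149 CPM in replicate 2. The ratio of Mir182 to Mir183, computed after their values were seen, was 2.97 (2.70 to 3.26) in replicate 1 and 1.28 (1.08 to 1.52) in replicate 2, so proportions also differed within this cluster. Mir34c, a miRNA of multiciliated and germ cells and the highest of the list in both libraries, had 578 CPM in replicate 1, against 1906 CPM in replicate 2, and was called lower (log2 ratio -1.72). Mir449b had no count in either library.

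Kidney and gut miRNAs are given here because tubular and intestinal epithelia carry the miR-200 family as well. They summed to 241 CPM in replicate 1 and 379 CPM in replicate 2. The list had no single direction, with a median log2 ratio of -0.10. Of 5 genes tested, 2 were called higher in replicate 1, against 8.66% of all tested genes. Another 2 were called lower, against 9.65%. So few genes tell little about the list. Mir215 had 72.4 CPM in replicate 1 and 0.593 CPM in replicate 2, where it had 1 count. Mir194-1 had 9.84 CPM in replicate 1 and likewise 1 count in replicate 2. Mir215 and Mir194-1, the genes called higher, passed the filter of 10 counts through replicate 1 alone. The counts that let them into the test were thus also those that made them higher. Mir204 had 85.1 CPM in replicate 1 and 91.3 CPM in replicate 2 and was not called. Mir192, the highest of the list by mean level, had 49.7 CPM in replicate 1 and 190 CPM in replicate 2, and Mir194-2 had 24.0 CPM in replicate 1 and 96.0 CPM in replicate 2. Mir192 and Mir194-2, which share a primary transcript, had a ratio of 2.07 (1.62 to 2.68) in replicate 1 and 1.98 (1.64 to 2.41) in replicate 2, with overlapping intervals. Mir194-1 and Mir194-2 give the same main mature form, so their levels are uncertain. Whether kidney or gut tissue contributed to the miR-200 counts was not tested.

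Mesenchymal miRNAs, the usual counterpart of the miR-200 family, had no member called of 5 tested, against 18.3% of all tested genes, and a median log2 ratio of 0.13, and so few genes tell nothing about the list. They summed to 44628 CPM in replicate 1 and 41834 CPM in replicate 2, nearly all from Mir143 with 41567 and 37940 CPM. The miR-200 family was thus 0.0741% of miRNA counts in replicate 1 and 0.0279% in replicate 2, beside 4.46% and 4.18% for the mesenchymal list. Among lists of other tissues, Mir122 of liver was called lower in replicate 1, as Mir31 was. Mir206, Mir208b and Mir499 were called lower among 4 striated muscle genes tested, against 9.65% of all tested genes. Mir217, the only pancreatic gene tested, was also called lower. It had 2 counts in replicate 1 and 32 in replicate 2. It passed the filter of 10 counts through replicate 2 alone, so the counts that let it into the test also made it lower in replicate 1. The erythroid Mir451a and Mir144 were called higher in replicate 1, as Mir200b, Mir200c and 8.66% of all tested genes were. Of 3 erythroid genes tested Mir486 was not called. Mir126a of endothelium was not called. Among 4 neuroendocrine genes Mir7-2 was called higher close to the threshold (log2 ratio 1.03), although its mature form is shared with Mir7-1 and its level is uncertain, and Mir375, the highest, was not called. The part of these tissues in the differences of the 8 genes was not tested.

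**Figure D4:**
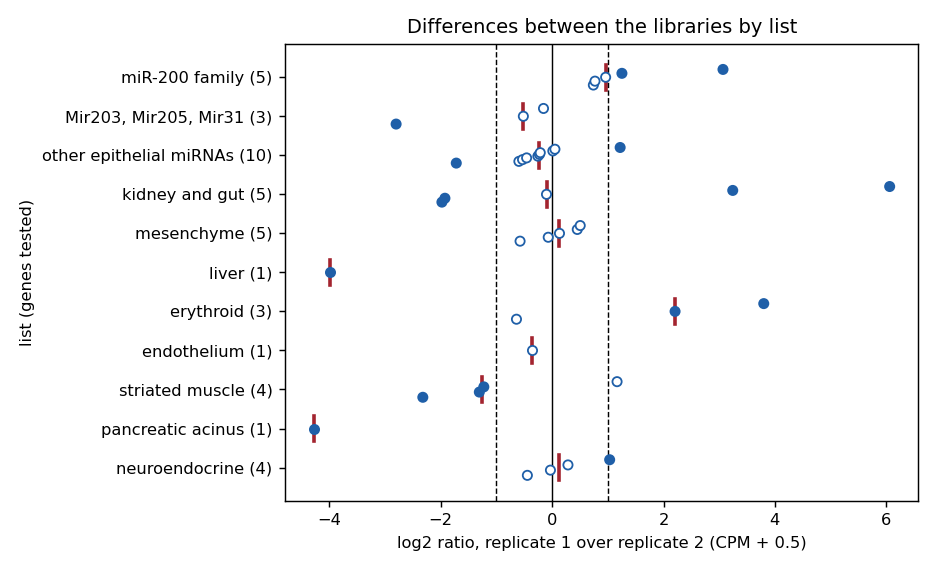
Log2 ratio of replicate 1 over replicate 2 (on CPM + 0.5) of each tested gene by list, with the number of genes tested in brackets. Filled points were called, open points were not, red bars are list medians and dashed lines mark 1 and -1. The 5 miR-200 genes, which come from 2 clusters, have a median of 0.96. The 10 tested genes of the other epithelial list have a median of -0.24, and all 404 tested genes one of 0.05.

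For each of the 8 genes the gene outside them with the nearest levels was found by the Euclidean distance on log2(CPM + 0.5) over the 2 libraries, which describes 2 values per gene and no shared control. Mir203 was nearest to Mir125b-1, with 504 CPM in replicate 1 and 545 CPM in replicate 2 (distance 0.15), Mir205 to Gm49347 (0.13), Mir200a to Mir592 (0.13) and Mir200c to Mir7-2 (0.20). The levels of Mir125b-1 and Mir7-2 are uncertain, since each gives the same main mature form as another locus. Mir429 was nearest to Mir1843a (0.26) and Mir141 to Mir1930 (0.37). Mir31 and Mir200b had no near match: Mir31 was nearest to Mir223 of myeloid cells, with 187 CPM in replicate 1 and 521 CPM in replicate 2 (0.95), and Mir200b to Mir1843b, with 192 CPM in replicate 1 and 74.7 CPM in replicate 2 (1.31).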

How the data were processed

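Small RNA of under 30 nucleotides was sequenced from 2 adrenal libraries of 1 group, per the labels. The authors deposited whole-number read counts per miRNA gene, 1 table per library, made on mm10 with annotation release M21 per the deposited file lists; the aligner and its settings are not given in the sources used here. Their 4 summary rows, which are no genes and held 66.3% of the reads of replicate 1 and 74.3% of those of replicate 2, were left out of totals. The column of the strand with more counts was used. All 2202 gene IDs matched GENCODE M21. A count of 0 allows up to 3 counts, 0.757 CPM in replicate 1 and 1.78 CPM in replicate 2. Reads are not independent molecules, so intervals (Clopper-Pearson or exact Poisson) cover counting error only.

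Tests, calls and named genes follow the rules stated in the report: all 8 genes, the called and the highest genes of each list, and the nearest gene of each of the 8. The genes and lists were chosen with earlier results of these data known. With 1 group no model with replicates could be fitted across all genes, so the exact test of all miRNA genes was used. It was first tried on simulated libraries that differed by counting error and set changes alone. That trial cannot show how often the test calls genes wrongly in libraries that vary beyond counting error. Other scalings were TMM (edgeR 4.0.16) and size factors (DESeq2 1.42.0). Python 3.11.15 with scipy 1.17.1 and R 4.3.3 were used.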

Additional observations from a re-analysis of the deposited data

Results flagged for a closer look

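Reads on the strand opposite to the counted one were not used in the report. At 1 of the 8 genes, Mir203, they were above the floor of 3 counts, the level that an observed count of 0 allows: 60 counts in replicate 1 and 44 in replicate 2, or 2.76% (2.11 to 3.54%) and 4.21% (3.07 to 5.61%) of the counts of both strands. Mir200a had 1 such count in each library, and the other 6 genes had 0. Over all miRNA genes the opposite strand had 478045 counts beside 3961630 sense-strand counts in replicate 1. In replicate 2 it had 216038 beside 1686822. The column for either strand held fewer counts than the sense strand alone, 3483881 in replicate 1 and 1470932 in replicate 2. A read at a locus with genes on both strands can count as sense for 1 gene and as opposite for the other. These totals therefore give no level to set Mir203 against, and whether its share was high among miRNA genes was not tested. GENCODE M21 lists no gene opposite Mir203, but RefSeq (GRCm38.p6) lists Gm51289, or mir-203b, on the minus strand at chr12:112130887-112130946. Each of its mature arms overlaps an arm of Mir203 over 20 bases, and both are shown because they are the annotated products of that strand, with the seed in capitals.
miR-203b-3p: uUGAACUGucaagaaccacugg
miR-203b-5p: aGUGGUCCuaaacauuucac
The counts do not tell which bases these reads covered.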

How the results depend on the processing

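Scaled to 1000000 reads of any kind, the mean summed level was 160 for the miR-200 family and 457 for all 8 genes, a change of unit; the log2 ratio of Mir203 was 0.23, against -0.16, and 6 genes were called in place of 3. A size threshold of 0.58 also called 6 of the 8 and 132 of all genes. In the either-strand column the 8 genes summed to 1804 CPM, against 1558, over a smaller library total. Without genes that share 20 bases with another precursor, 47 genes were called of 289 tested. Under TMM, DESeq2, either-strand, CPM + 5, no filter and no shared bases, the 3 called genes remained Mir200b, Mir200c and Mir31. Leaving out 1 of 2 libraries cannot move a mean beyond its SD and shows nothing about stability. No paired analysis was possible because there is 1 group. Depth limits Mir141 most, with 16 counts in replicate 2.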
